A study of Mus musculus with 23 samples.

Results

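Notch1, Notch4, Dll4, Jag1, Jag2, Hey1, Hes1, Sox17, Gkn3 and Bmx were followed through the cell types of the mouse brain and through the fluorescence bins of its endothelial cells. These 10 genes, 10 of 32285 in the deposited count matrix, were given by name and found by their symbols. All of them passed the filter on low counts in every fit below. Single live cells of mouse brain (the olfactory bulb, the cerebellum, the pons and the medulla had been removed) were sorted by the signal of an injected antibody labelled with the dye AF647 and profiled by droplet RNA sequencing, in which unique molecular identifiers (UMIs) count RNA molecules.

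ATV-TfR is an antibody transport vehicle that binds the transferrin receptor; labelled DNP02_hIgG1_LALAPG_ATV35.23.2, it was given to TfR mu/hu KI mice, in which that receptor is a mouse/human knock-in. The second vehicle, ATV-CD98hc, labelled DNP02 LALAPG LLB2-10-8 monovalent, binds CD98hc and was given to CD98hc mu/hu KI mice. Control IgG, labelled DNP02_hIgG1_LALAPG, was given to C57BL/6 mice, which have neither knock-in. Treatment and genotype therefore cannot be told apart. The sample labels give every mouse's age as 3.3 months and the series' design text as 12 weeks. Each mouse received 45 mg/kg of an AF647 conjugate through the tail vein and was perfused 24 hours later, and all brains were dissociated with Actinomycin D and Anisomycin, inhibitors of transcription and translation. Cells of 1 male and 1 female were pooled, with 2 such pools in each treatment, and every pool was sorted into a negative, a low, a medium and a high bin. The gates came from the tertiles of the positive cells of ATV-TfR, so a bin held different parts of the brain's cells in each treatment: about 30% of live cells were positive with ATV-TfR, 20% with ATV-CD98hc and 1% with control IgG. P-values measure the spread between libraries of the same group, which come from different pools. The bins of a pool share animals but entered the main fits as separate libraries, so the p-values leave out that link. There were 23 libraries, 2 in each of 11 groups and 1 in the control IgG negative group.

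Notch is a receptor that is cut when a ligand on a neighbouring cell binds it, and its freed inner part joins the DNA-binding protein RBPJ to switch on targets such as the Hes and Hey repressors. In growing vessels this signal favours arterial over venous identity, and Sox17 is a transcription factor needed for the same choice. Gkn3, a secreted protein of the gastrokine family, and Bmx, a tyrosine kinase of the Tec family, are known as marks of arterial endothelium in the brain.

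Library totals ran from 1861238 to 90307818 UMIs. After filters and removal of doublets, 234024 cells were kept, 519 to 19341 per library, and 96368 of them (41.2%) were endothelial-like by the fixed markers. All 10 endothelial markers were present in these cells in each of the 23 libraries, with a summed level of 19000.0 to 27327.6 CPM, the gene's UMIs scaled to a class total of 1000000 UMIs. The median depth of endothelial-like cells was 2042 to 4947 UMIs. Their number per library differed far more: 121 and 77 in the ATV-TfR negative bin (replicates 1 and 2), 16439 and 15224 in its high bin, 76 and 58 in the ATV-CD98hc negative bin, 8859 and 11544 in its high bin, and 10 and 14 in the control IgG high bin. Values of the negative ATV bins therefore rest on few cells. Of the barcodes that passed the filter, 6.14% had a sequence that also occurred in another library, and no pair of libraries shared more than 119.

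The sequences just before the start sites of 3 members are shown because, over all endothelial-like cells, Gkn3 and Bmx fell most of the 10 from the negative to the high bin with both ATVs, while Dll4, a ligand, was not called with either in the same fit (with ATV-TfR it was called with the pool as a block, with RLE factors or by DESeq2). Each runs 5′ to 3′ over the 250 bases before the RefSeq start (GRCm38.p6), and capitals mark TGGGAA, the core letters read by RBPJ, searched on both strands. Gkn3 lies on the minus strand (window chr6:87388936-87389185), Bmx on the minus strand (chrX:164258194-164258443) and Dll4 on the plus strand (chr2:119325534-119325783).
Gkn3: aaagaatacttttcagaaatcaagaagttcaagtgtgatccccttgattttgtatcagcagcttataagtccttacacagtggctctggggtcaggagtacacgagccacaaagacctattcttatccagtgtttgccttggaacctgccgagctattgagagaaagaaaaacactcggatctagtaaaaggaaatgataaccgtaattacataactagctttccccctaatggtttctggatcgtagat
Bmx: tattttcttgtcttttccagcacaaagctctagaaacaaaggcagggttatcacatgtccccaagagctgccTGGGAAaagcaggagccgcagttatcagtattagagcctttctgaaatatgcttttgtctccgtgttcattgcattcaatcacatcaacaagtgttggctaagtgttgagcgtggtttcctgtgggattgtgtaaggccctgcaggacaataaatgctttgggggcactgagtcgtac
Dll4: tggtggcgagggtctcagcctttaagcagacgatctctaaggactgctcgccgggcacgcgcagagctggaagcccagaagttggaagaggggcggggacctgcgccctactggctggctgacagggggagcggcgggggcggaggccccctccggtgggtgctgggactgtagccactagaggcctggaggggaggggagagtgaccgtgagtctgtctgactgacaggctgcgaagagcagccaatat

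The Dll4 window was rich in G and C (65.6% of bases), and those of Bmx (45.6%) and Gkn3 (40.8%) lay below the median of 52.4% over 32851 promoters. TGGGAA stood once in the Bmx window, starting at position -178, and in none of the other member promoters in the table, which held 7 of the 10 genes. It occurs in 21.6% of all promoters of this length. AACAAT, letters read by SOX proteins, was in no member's window and in 9.42% of all. A match is only a match of letters. Hey1, Hes1 and Sox17 are named only.

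**Figure D1:**
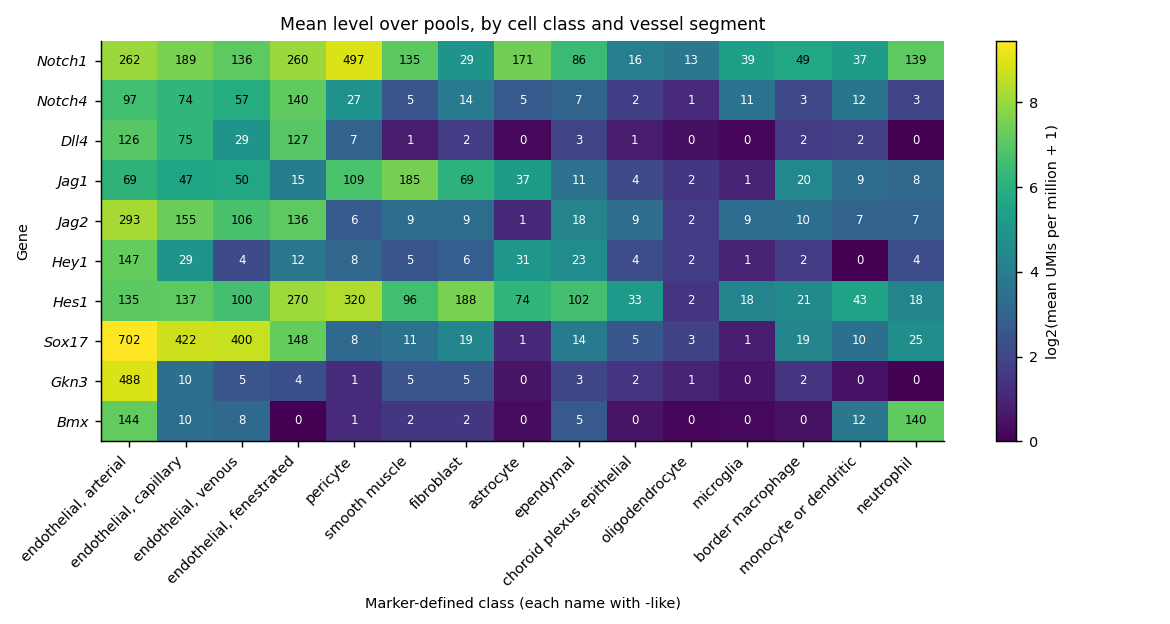
Heat map of each member (rows) over 4 endothelial vessel segments and 11 other cell classes (columns); each cell prints the mean CPM over pools and its colour is log2(mean CPM + 1). Over all bins together, Dll4, Jag2, Hey1, Sox17, Notch4 and Gkn3 are highest in an endothelial segment, Notch1 and Hes1 in pericyte-like and Jag1 in smooth muscle-like cells. Bmx is near the same level in arterial-like (143.7) and neutrophil-like (140.4) cells.

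Across cell types, levels are CPM of the class summed per pool over all bins, given as mean ± SD over pools. They are compared within a gene only, since counts are not per transcript length. The classes were spread unequally over the bins. In ATV-TfR, smooth muscle-like cells numbered 654 and 514 in the negative and 7 and 7 in the high libraries. Endothelial-like cells there numbered 121 and 77 against 16439 and 15224, so class and bin are not separated. Notch1, a receptor, had its highest level in pericyte-like cells (497 ± 39.3, n = 5), followed by endothelial-like cells (193 ± 26.2, n = 6) and astrocyte-like cells (171 ± 5.41, n = 5), of which the last pair lay within their spread. Notch4, the receptor known from endothelium, was at 76.7 ± 5.91 (n = 6) in endothelial-like and 27.3 ± 1.71 (n = 5) in pericyte-like cells, the next class. The receptors thus had different leading classes.

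Dll4, the ligand of vascular sprouting, was at 76.0 ± 15.9 (n = 6) in endothelial-like cells and at 7.06 ± 3.44 (n = 5) in the next class, pericyte-like cells. Jag2 was at 173.5 ± 22.2 (n = 6) in endothelial-like cells and at 17.9 ± 7.43 (n = 5) in ependymal-like cells. Jag1, a ligand by which endothelium and mural cells signal to each other, was instead highest in smooth muscle-like cells (184.6 ± 12.9, n = 5). It was at 109.0 ± 10.6 (n = 5) in pericyte-like, 68.6 ± 14.9 (n = 6) in fibroblast-like and 49.7 ± 2.16 (n = 6) in endothelial-like cells. This order holds over all bins together. In the negative bins alone, endothelial-like Jag1 was at 200.9 ± 17.1 (ATV-TfR, n = 2) and 168.1 ± 22.3 CPM (ATV-CD98hc, n = 2), near the smooth muscle-like level.

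Hes1, a target and repressor, was at 319.8 ± 72.1 (n = 5) in pericyte-like cells, 188.0 ± 47.1 (n = 6) in fibroblast-like and 136.8 ± 33.3 (n = 6) in endothelial-like cells, each overlapping the next in its range over pools. The other target, Hey1, was at 46.3 ± 21.4 (n = 6) in endothelial-like and 30.9 ± 2.83 (n = 5) in astrocyte-like cells, whose ranges over pools overlapped. The 3 arterial genes differed in how far they were restricted. Sox17 was at 472.8 ± 56.2 (n = 6) in endothelial-like cells and Gkn3 at 75.8 ± 23.5 (n = 6), with the next classes at 24.8 ± 50.5 (neutrophil-like, n = 6) and 4.83 ± 9.01 (fibroblast-like, n = 6). Bmx was at 140.4 ± 39.8 (n = 6) in neutrophil-like cells, from 109 UMIs in 265 cells, against 28.8 ± 8.54 (n = 6) in endothelial-like cells. The latter level is over all bins, and in the negative bins endothelial-like Bmx was at 219.2 ± 86.7 (ATV-TfR, n = 2) and 201.0 ± 16.3 CPM (ATV-CD98hc, n = 2). Free RNA can give a few UMIs in any class; the 10 endothelial markers summed to 965 CPM in neutrophil-like cells and to 25993.4 CPM in endothelial-like cells.

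Endothelial-like cells were split into vessel segments by marker lists that held none of the 10 genes, which were also left out of the clustering. An unnamed cluster of 1806 cells, led by Gkn3 and with Bmx among its leading genes, is not among them. It passed both the endothelial and the astrocyte list, so the arterial-like shares and levels leave it out. Levels below are CPM, mean ± SD over 6 pools (5 for fenestrated-like cells). Gkn3 was at 488 ± 131.5 in arterial-like cells against 10.2 ± 6.22 in capillary-like and 4.58 ± 1.74 in venous-like cells. Arterial-like cells were 18.2% of the endothelial-like cells and held 84.4% of their Gkn3 UMIs, 71.5% of their Bmx UMIs and 47.1% of their Hey1 UMIs. For Sox17, Dll4, Jag1, Jag2, Notch1 and Notch4 they held 20.4% to 27.1%, and for Hes1 16.1%.

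Bmx was at 143.7 ± 19.0 in arterial-like and 9.62 ± 3.33 in capillary-like cells, and no UMI of it was found in the fenestrated-like cells, a type known from vessels without a tight barrier (0 of 310 cells, which allows up to 0.968% of cells with a Bmx UMI by counting error only and sets no limit on cells that express the gene). Hey1 was at 147 ± 31.5 in arterial-like, 29.1 ± 12.5 in capillary-like and 3.60 ± 1.90 in venous-like cells. The fenestrated-like cells stood apart in a different way. They had the highest Hes1 (270.5 ± 68.8, against 135 ± 17.3 in arterial-like cells) and Notch4 (140.4 ± 26.0 against 96.6 ± 8.83, with overlapping pools), and Dll4 near the arterial-like level (127 ± 24.4 against 126 ± 19.6). Jag1 was at 14.8 ± 9.89 and Sox17 at 147.5 ± 48.7 there, and each of the 5 pools lay below every pool of the other segments.

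The genes most like a member over 15 classes and segments, by Pearson's r of log2(CPM + 1), included a gene of the arterial list only for Gkn3, to which Stmn2, one of the arterial segment markers, was nearest (r = 0.899). Sox17 was nearest to Ly6c1 (r = 0.996), Tek (0.990) and Ly6a (0.989), genes of endothelium in general. Dll4 was nearest to Tead4 (0.977), Robo4 (0.972) and Flt4 (0.969), and Notch4 to Tead4 as well (0.937). Hes1 was nearest to Cdc42ep4 (0.955) and Jag1 to Kank2 (0.907). These are descriptions over points that share libraries and depth.

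**Figure D2:**
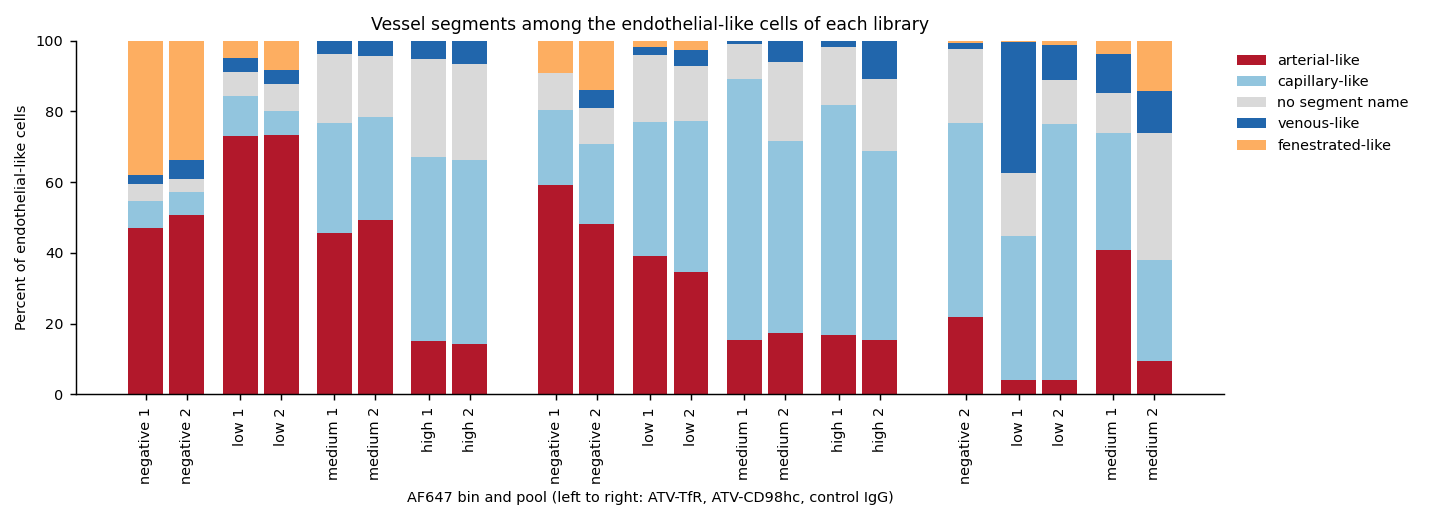
Stacked bars of the share of endothelial-like cells in each vessel segment, in percent, for each of the 21 libraries with at least 20 endothelial-like cells (1 bar a library, labelled by bin and pool, which leaves out the control IgG high bin). With both ATVs the arterial-like share was between 47.1% and 59.2% in the negative bin and between 14.2% and 16.9% in the high bin, while the capillary-like share went the other way; segments are those of resolution 1, and the peak in the ATV-TfR low bin is not seen at 1.5.

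The mix of segments changed with the bin. Arterial-like cells were 47.1% and 50.6% of endothelial-like cells in the ATV-TfR negative bin, 73.0% and 73.3% in the low, 45.6% and 49.4% in the medium and 15% and 14.2% in the high bin. With ATV-CD98hc they were 59.2% and 48.3%, then 39.1% and 34.7%, 15.5% and 17.3%, and 16.9% and 15.4%. Control IgG had 21.8% in the 1 negative library and 4.16% and 4.12% in the low bin. These shares depend on where the segments are drawn. At resolution 1.5 in place of 1 the ATV-TfR low libraries had 41.1% and 38.6% against 39.7% and 40.3% in the negative bin, so the peak in the low bin was not seen, and the 1 control IgG negative library had 6.42%. The ATV-CD98hc high libraries had 2.03% and 11.5% at 1.5 and 2.04% and 8.59% at 0.5. With both ATVs the high libraries lay below the negative ones at all 3 resolutions. Capillary-like cells were 7.44% and 6.49% of the ATV-TfR negative bin and 52.2% in both high libraries. Fenestrated-like cells made up 38.0% and 33.8% of the ATV-TfR negative bin, 9.21% and 13.8% of the ATV-CD98hc negative bin, and at most 0.0903% of the high libraries of both. In a sum over endothelial-like cells, fewer cells of a segment and less RNA per cell cannot be told apart, so the comparisons are given over all endothelial-like cells first and then within arterial-like and capillary-like cells.

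**Figure D3:**
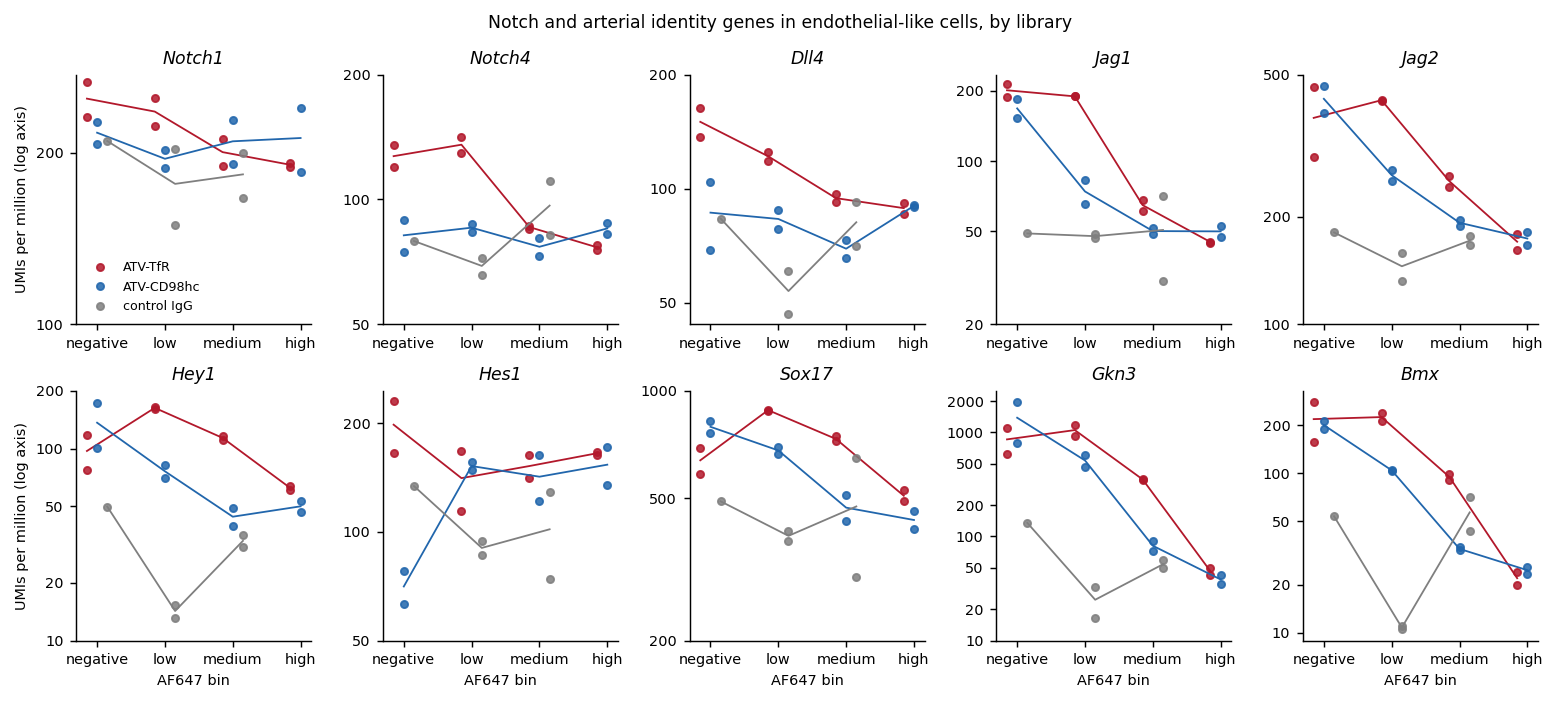
Level of each member in endothelial-like cells (UMIs per 1000000, log axis) over the bins of each treatment, with a point for each library of at least 20 endothelial-like cells and lines through the group means. Gkn3 and Bmx are lower in the high than in the negative bin with both ATVs, as is Jag1, whereas Notch1 stays within 185 to 266 CPM in their libraries.

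In endothelial-like cells of ATV-TfR, the genes most particular to arteries and the Jagged ligands were called lower in the brightest bin by edgeR, and the receptors were not. Here and below, log2 changes include the scaling factors of the fit (TMM) and CPM values do not. A log2 change can therefore differ in size, or for small changes in sign, from the CPM values beside it. Gkn3 (chr6:87383256-87388935) was at 614.5 and 1097 CPM in the negative libraries (replicates 1 and 2), 932 and 1171 in the low, 354.9 and 351 in the medium and 50.3 and 42.2 in the high libraries. The high libraries lay far below all others, and the low bin overlapped the negative bin. From negative to high it fell by 3.99 on the log2 scale (SE 0.37, edgeR quasi-likelihood test, Benjamini-Hochberg adjusted p = 2.63e-08), a 15.9-fold difference. Bmx (chrX:164192842-164258193) was at 158 and 280.5 CPM in the negative, 239 and 212 in the low, 91.0 and 99.1 in the medium and 23.9 and 20.0 in the high libraries, and fell by 3.07 (SE 0.21, edgeR adjusted p = 2.298e-10). Its order over the bins was that of Gkn3.

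The Jagged ligands fell less. Jag1 (chr2:137081456-137116644) was at 188.8 and 213 CPM in the negative and 189.1 and 189.3 in the low libraries, against 61.1 and 68.4 in the medium and 44.8 and 45.2 in the high libraries. Its step thus lay between the low and the medium bin, and negative to high it fell by 1.94 (SE 0.20, edgeR adjusted p = 1.878e-07). Jag2 (chr12:112907819-112929776) was at 294.7 and 462 CPM in the negative, 423 and 425 in the low, 242 and 261 in the medium and 162 and 179 in the high libraries. It fell by 0.92 (SE 0.19, edgeR adjusted p = 0.001981), and without ATV-TfR replicate 2 this was -0.70 with edgeR adjusted p = 0.3032.

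By edgeR 4 of the 10 genes were lower and none higher in the ATV-TfR high bin (6 lower by DESeq2), where 6.54% of the 15372 genes tested were called lower and 3.43% higher (9.97% in all). The median over the 10 was -0.52 on the log2 scale, against 0.15 over all genes. The other 6 ranged from -0.53 to -0.03. Dll4, a ligand, was at 137 and 163 CPM in the negative and 91.9 and 85.8 in the high libraries (log2 change -0.53, SE 0.20, edgeR adjusted p = 0.1046). Notch4 was at 119 and 135 against 75.5 and 77.8 CPM (-0.51, SE 0.18, edgeR adjusted p = 0.08489). In both genes the 2 groups did not overlap. Both were called lower with the pool as a block (adjusted p = 0.02803 for Dll4 and 0.04106 for Notch4), with RLE factors in place of TMM factors (0.01566 and 0.01073), and by DESeq2 (0.001914 and 0.0006895). Notch1 was at 231 and 266 against 189 and 192 CPM (-0.17, SE 0.19, edgeR adjusted p = 0.6615).

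Hey1 (chr3:8663359-8667256) had its peak in the low bin: 77.0 and 117 CPM in the negative, 164 and 162 in the low, 116 and 111 in the medium and 63.8 and 60.6 in the high libraries. Its negative to high change of -0.38 (SE 0.24) had edgeR adjusted p = 0.3879. Without the fenestrated-like cells, an alternative chosen after seeing the data, the change was -0.95 (adjusted p = 0.01826). Sox17 likewise was highest in the low libraries (886 and 879 CPM), with 691.5 and 586 in the negative and 490.5 and 526 in the high libraries (-0.13, SE 0.22, edgeR adjusted p = 0.7881). Hes1 was at 166 and 231 CPM in the negative and 167 and 164 in the high libraries (-0.03, SE 0.24, edgeR adjusted p = 0.9597).

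Against the mean of the low, medium and high groups, where 3.87% of genes were called lower and 1.32% higher (5.19% in all), 3 of the 10 were lower by edgeR in the brighter bins of ATV-TfR, and 5 by DESeq2, which added Jag2 (adjusted p = 0.01732) and Dll4 (0.02701). Gkn3 fell by 1.62 (SE 0.26, edgeR adjusted p = 0.0001742), Bmx by 1.35 (SE 0.18, 1.142e-05) and Jag1 by 1.18 (SE 0.17, 4.364e-05). Jag2 was at -0.40 (SE 0.16, adjusted p = 0.1989; 0.04398 with the pool as a block). Without ATV-TfR replicate 2 the calls of Gkn3 and Bmx ended (-1.19, adjusted p = 0.2339, and -0.90, 0.06346).

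**Figure D4:**
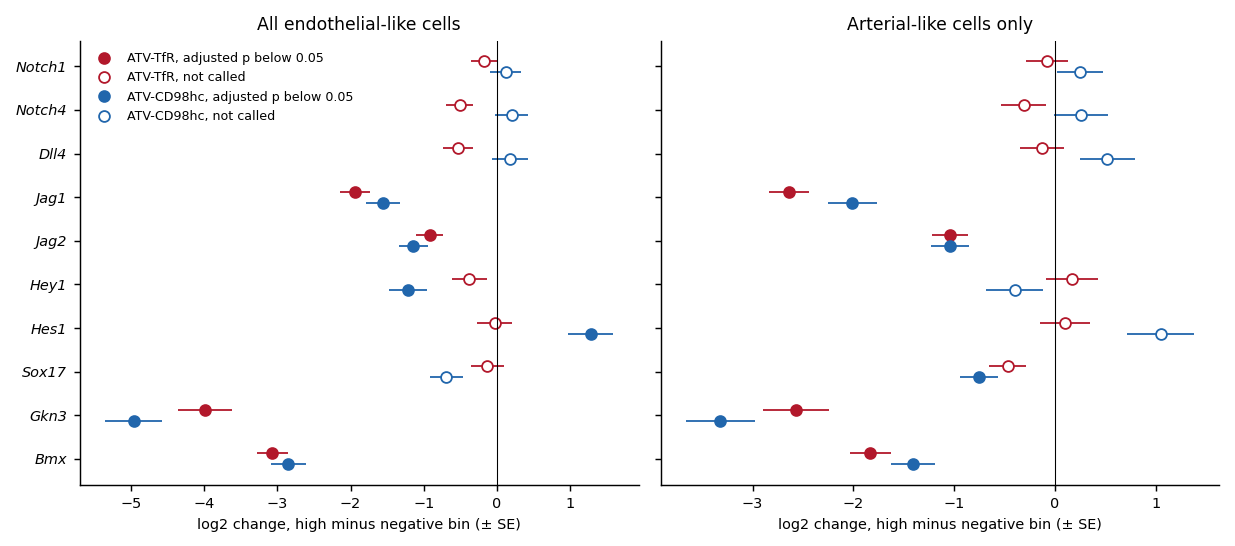
Log2 change of each member from the negative to the high bin (points, with SE as lines) for ATV-TfR and ATV-CD98hc, in all endothelial-like cells (left) and in arterial-like cells only (right). Filled points passed an adjusted p of 0.05; Gkn3, Bmx, Jag1 and Jag2 did so with both ATVs in both panels, and Hes1 of ATV-CD98hc on the left is the only filled point above 0.

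With ATV-CD98hc the same 4 genes and Hey1 were lower in the high bin and Hes1 was higher. Gkn3 was at 788 and 1976 CPM in the negative, 464.5 and 609.5 in the low, 71.9 and 90.9 in the medium and 34.6 and 42.6 in the high libraries. Every step down separated the groups, although the negative libraries lay far from each other. It fell by 4.96 (SE 0.39, edgeR adjusted p = 4.07e-09), a 31.2-fold difference. Bmx was at 189.5 and 212.5 CPM in the negative, 104.9 and 104.2 in the low, 34.3 and 32.8 in the medium and 26.0 and 23.3 in the high libraries, and fell by 2.85 (SE 0.24, edgeR adjusted p = 1.109e-08).

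Jag1 was at 152 and 184 CPM in the negative, 65.3 and 82.9 in the low, 48.7 and 51.6 in the medium and 47.1 and 52.9 in the high libraries. The medium and high groups overlapped, so its decline lay below the medium gate. It fell by 1.56 (SE 0.23, edgeR adjusted p = 6.108e-05). Jag2 was at 464.5 and 391 CPM in the negative and 181 and 167 in the high libraries, with 270.5 and 252 in the low bin, and fell by 1.14 (SE 0.20, edgeR adjusted p = 0.0005539). Hey1 was at 100.3 and 172 CPM in the negative, 70.0 and 82.2 in the low, 39.4 and 48.9 in the medium and 46.8 and 53.2 in the high libraries. It fell by 1.22 (SE 0.26, edgeR adjusted p = 0.004248), and this call ended without ATV-CD98hc replicate 2 (-1.01, adjusted p = 0.08293).

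Hes1 (chr16:30064384-30067796) went the other way. It was at 78.0 and 63.2 CPM in the negative libraries, from 21 and 11 UMIs, and at 148 and 156 in the low, 121.5 and 163 in the medium and 135 and 172 in the high libraries. The negative libraries lay below all others of this treatment. It rose by 1.28 on the log2 scale (SE 0.31, edgeR adjusted p = 0.01285). The call ended without ATV-CD98hc replicate 2 (0.88, adjusted p = 0.2293) and when endothelial cells were taken by a marker gate instead of clusters (0.99, 0.1185).

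Counted together, 5 of the 10 were lower and 1 higher by edgeR (6 and 1 by DESeq2, which added Sox17), where 3.69% of the genes tested were called lower and 1.60% higher (5.29% in all). The median over the 10 was -0.92, against 0.19 over all genes. Sox17 was at 821 and 764 CPM in the negative and 410.3 and 459 in the high libraries (-0.69, SE 0.22, edgeR adjusted p = 0.07692; 0.0001915 with the pool as a block and 0.01379 with RLE factors). The receptors and Dll4 did not pass: Notch1 at 227 and 207 against 239 and 185 CPM (0.12, SE 0.21), Notch4 at 89.2 and 74.7 against 87.6 and 82.7 (0.20, SE 0.22) and Dll4 at 104.0 and 68.9 against 89.4 and 90.8 (0.18, SE 0.25), with edgeR adjusted p of 0.8429, 0.7529 and 0.7953. Against the mean of the brighter bins (2.61% of genes lower, 1.03% higher and 3.64% in all), the same 6 genes were called. With 1 pool of ATV-CD98hc left out, the call of Jag2 ended without replicate 1 (-0.84, edgeR adjusted p = 0.0796), and those of Hey1 (-0.92, 0.1358) and Hes1 (0.85, 0.2609) without replicate 2. The Hes1 call also ended with the marker gate (0.88, 0.1819). Over all pools, Gkn3 fell by 3.41 (SE 0.26), Bmx by 2.07 (SE 0.20), Jag1 by 1.43 (SE 0.20), Hey1 by 1.14 (SE 0.24) and Jag2 by 0.96 (SE 0.17), and Hes1 rose by 1.16 (SE 0.29, edgeR adjusted p = 0.02005). Sox17 was at -0.51 (SE 0.18, edgeR adjusted p = 0.1718; 0.002637 with the pool as a block, 0.04116 with RLE factors and 0.001054 with DESeq2).

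The difference between the ATVs was tested as an interaction. No member passed in edgeR, and none by DESeq2; 4 of the 10 had an unadjusted p below 0.05, and 0.0195% of all genes were called, 3 in number. The change of Hes1 was 1.30 lower with ATV-TfR than with ATV-CD98hc (log2 difference -1.30, SE 0.40, edgeR adjusted p = 0.5825), that of Notch4 -0.71 (SE 0.29, 0.8166) and that of Dll4 -0.72 (SE 0.31, 0.8405). For Hey1 the difference was 0.83 (SE 0.35, 0.8205) and for Gkn3 0.97 (SE 0.47, 0.8984). With the pool as a block 100 genes were called, among them Hes1 (-1.25, adjusted p = 0.01806) and Gkn3 (0.95, 0.004438). Between the high bins alone, the 10 differences of ATV-TfR minus ATV-CD98hc lay between -0.14 and 0.34, with 0.137% of genes called (0.0911% higher, 0.0455% lower; 21 in number) and no member in edgeR or DESeq2; 0 of the 10 had an unadjusted p below 0.05.

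The control IgG high bin held too few endothelial-like cells to be fitted, so its low bin was set against its negative bin, a comparison chosen after seeing the data. That negative group is 1 library, so its own spread was not measured: the p-values below borrow the spread of the other groups and cannot show how far another negative library would lie from it. It had 135.0 CPM of Gkn3, 53.8 of Bmx and 49.8 of Hey1, all below the negative libraries of both ATVs. The low libraries had 33.0 and 16.3 CPM of Gkn3, 10.5 and 11 of Bmx and 13.1 and 15.4 of Hey1. Gkn3 fell by 2.45 (SE 0.40, edgeR adjusted p = 0.0003631), Bmx by 2.28 (SE 0.24, 1.171e-06) and Hey1 by 1.75 (SE 0.24, 5.572e-05), while Dll4 was at 83.4 against 46.7 and 60.7 CPM (-0.58, SE 0.21, 0.1625). Jag1 was nearly level (49.0 against 48.5 and 46.9 CPM). So 3 of 10 were lower and none higher by edgeR (4 lower by DESeq2, which added Dll4 with adjusted p = 0.02152), where 3.40% of genes were called lower and 0.481% higher (3.88% in all). Venous-like cells were 36.9% and 9.69% of the low libraries (replicates 1 and 2) and 1.54% of the negative library. With segments drawn at resolution 1.5 in place of 1 these were 40.2%, 44.9% and 11.5%, and at 0.5 no cell of these libraries was named venous-like.

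**Figure D5:**
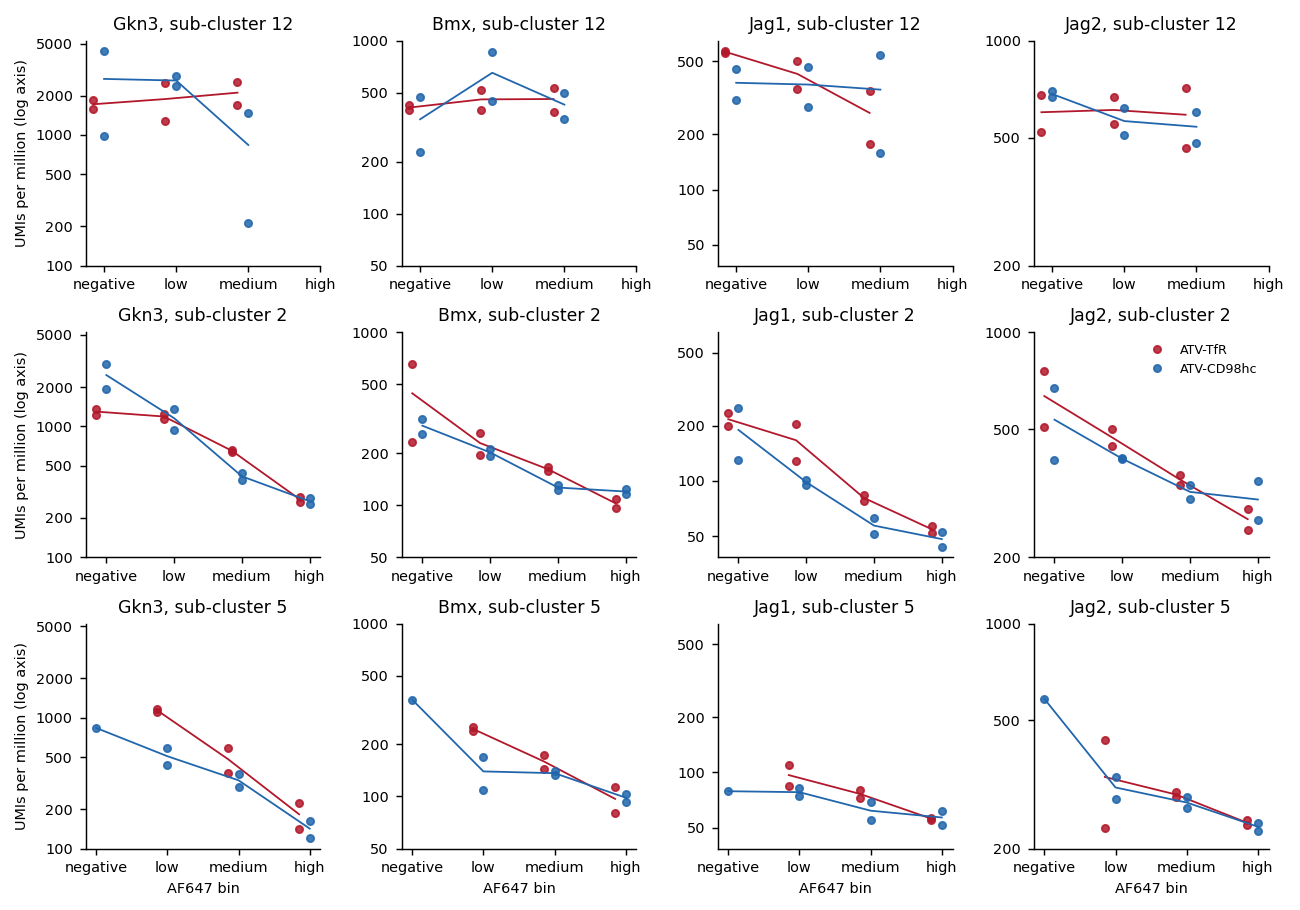
Level of Gkn3, Bmx, Jag1 and Jag2 (UMIs per 1000000, log axis) in arterial-like sub-clusters 12, 2 and 5 over the bins of both ATVs, with a point for each library of at least 5 cells of the sub-cluster and lines through the group means. In sub-cluster 2, Gkn3 goes from 1232 and 1362 in the ATV-TfR negative bin to 289 and 265 in its high bin, so its decline is also seen within 1 sub-cluster.

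Within arterial-like cells alone, an analysis added after seeing the data, Gkn3, Bmx, Jag1 and Jag2 were again lower in the high than in the negative bin of both ATVs. With ATV-TfR, Jag1 fell by 2.64 (SE 0.20, edgeR adjusted p = 1.04e-11), Gkn3 by 2.57 (SE 0.33, 8.128e-07), Bmx by 1.83 (SE 0.20, 2.354e-08) and Jag2 by 1.04 (SE 0.18, 0.0001341). With ATV-CD98hc, Gkn3 fell by 3.32 (SE 0.34, 1.629e-08), Jag1 by 2.01 (SE 0.24, 3.495e-07), Bmx by 1.41 (SE 0.22, 3.449e-05), Jag2 by 1.04 (SE 0.19, 0.0003859) and Sox17 by 0.75 (SE 0.19, 0.01376). Sox17 was at -0.47 (SE 0.18, 0.1419; 0.007822 with the pool as a block) with ATV-TfR. Hes1 was at 1.05 with ATV-CD98hc (SE 0.33, 0.06926; 0.01775 with the block). So 4 of the 10 were lower by edgeR with ATV-TfR (5 by DESeq2, which added Sox17), where 3.92% of genes were called lower and 2.22% higher (6.14% in all), and 5 by either tool with ATV-CD98hc, where 2.61% were called lower and 1.67% higher (4.29% in all). Without ATV-TfR replicate 1 or 2 the Jag2 call of ATV-TfR ended (adjusted p = 0.05389 and 0.1182), as did that of ATV-CD98hc without its replicate 1 (0.09561). The Sox17 call ended without its replicate 1 (0.2504) or either ATV-TfR replicate (0.06595 and 0.06652).

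The arterial-like cells of the bins came from different sub-clusters. Among them, 9 of the 10 genes of the capillary list were called higher in the high bin with ATV-TfR and 8 with ATV-CD98hc. The capillary list's median log2 changes were 2.96 and 3.26, where 2.22% and 1.67% of all genes were called higher. Of 22 other arterial genes, 10 were lower with each ATV (3.92% and 2.61% of all genes), and 1 was higher with ATV-TfR. Within this segment, too, capillary genes were thus higher and arterial genes lower, but these lists are not independent of the segment names. Of the capillary list 9 genes, and of the arterial list 11, had also served to name the segments. Sub-clusters 12, 2 and 5, which make up the segment, had 0, 1 and 4 capillary markers raised. Sub-cluster 12, with 325 cells and all 11 arterial markers raised, was 25.6% and 33.8% of endothelial-like cells in the ATV-TfR negative bin and 22.4% and 13.8% in that of ATV-CD98hc, but at most 0.00657% of the high bins, where sub-clusters 2 and 5 held the rest. It had 421.6 CPM of Jag1, 1855 of Gkn3, 478.0 of Bmx and 575.6 of Jag2, against 67.5, 487.7, 134.3 and 307.4 in sub-cluster 2. Its Mgp, a matrix protein of large arteries, was at 5129 CPM against 176.6. Inside sub-cluster 2, Gkn3 was at 1232 and 1362 CPM in the ATV-TfR negative and 289 and 265 in the high libraries, and at 1922 and 3013 against 253 and 282 with ATV-CD98hc. Jag1 was at 198 and 236 against 52.3 and 56.9 CPM, and at 129.6 and 249.7 against 43.7 and 52.7. The groups did not overlap in either gene, though the negative libraries gave only 9 to 23 cells of this sub-cluster each, and no test was run on it.

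Capillary-like cells were too few in the negative bins (5 to 16 a library), so their high bin was set against the medium one, also after seeing the data. No member passed in edgeR with either ATV, where 3.00% (ATV-TfR) and 1.07% (ATV-CD98hc) of genes were called, and none by DESeq2. Of the 10, 0 with ATV-TfR and 2 with ATV-CD98hc had an unadjusted p below 0.05. With ATV-CD98hc, Gkn3 was at -1.07 (SE 0.39, edgeR adjusted p = 0.4895), Bmx at -0.55 (SE 0.28, 0.9999) and Dll4 at 0.41 (SE 0.15, 0.4793). With the pool as a block all 3 were called (adjusted p = 2.387e-05, 0.001588 and 0.004963), among 787 genes. The fit without the block leaves out the pairing of these bins by pool. Over all endothelial-like cells, the replicate 1 minus 2 differences of the medium and high bins correlated at 0.96 with ATV-CD98hc and 0.47 with ATV-TfR. For ATV-TfR, Gkn3 was at -0.11 (SE 0.54, 0.9829) and Dll4 at 0.18 (SE 0.16, 0.8809), and the block raised the genes called from 430 to 763 with no member named here among them.

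The rest of the Notch pathway was followed with a list of 48 genes, 45 of them tested. In endothelial-like cells of ATV-TfR, 5 fell and 1 rose from the negative to the high bin, where 6.54% of all genes were called lower and 3.43% higher. Nrarp, a feedback inhibitor of Notch, fell (log2 change -2.09, SE 0.34, edgeR adjusted p = 0.0001045), as did the ligand Dll1 (-2.63, SE 0.43, 0.0001275) and the repressor Hey2 (-3.51, SE 0.64, 0.0004534). The negative libraries of ATV-TfR held 10 and 7 UMIs of Dll1 and 7 and 4 of Hey2, so the sizes of both falls rest on few molecules. Aph1a, a subunit of the gamma-secretase that cuts Notch, rose by 0.85 (SE 0.25, 0.02721), a call that DESeq2 did not make. The list's median was 0.04, against 0.15 over all genes. With ATV-CD98hc, where 3.69% of all genes were called lower and 1.60% higher, none of the 45 passed in edgeR (5 at an unadjusted p below 0.05), and 2 were lower by DESeq2, with a median of -0.06 against 0.19. Of the genes called with ATV-TfR, Nrarp was at -1.52 there (SE 0.48, adjusted p = 0.0718) and Aph1a at 0.86 (SE 0.28, 0.08779). Dll1 was at 0.94 (SE 1.13, 0.797) and Hey2 at -1.54 (SE 1.66, 0.7303), each with 1 UMI in all in the ATV-CD98hc negative libraries, too few to show a direction.

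Of 22 other arterial genes, 15 fell and none rose with ATV-TfR, and 12 fell and none rose with ATV-CD98hc, against 6.54% and 3.69% of all genes called lower; 11 of the 22 had also served to name the segments. With ATV-TfR, Mgp fell (log2 change -6.25, SE 0.31, edgeR adjusted p = 1.09e-12), as did the elastic fibre protein Fbln5 (-9.40, SE 0.50, 2.286e-12) and the secreted protein Cytl1 (-10.88, SE 0.61, 6.184e-12). The size of the last pair rests on few molecules: Cytl1 had 80 and 31 UMIs in the negative and 7 and 0 in the high libraries, and Fbln5 122 and 96 against 38 and 7. With ATV-CD98hc, Mgp fell by 6.08 (SE 0.31, 1.033e-11), the growth factor Vegfc by 4.17 (SE 0.22, 1.393e-11) and Clu by 6.29 (SE 0.36, 3.14e-11). The medians were -1.47 and -2.10.

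In the capillary list 7 of 10 rose and 1 fell with each ATV, where 3.43% (ATV-TfR) and 1.60% (ATV-CD98hc) of all genes were called higher and 6.54% and 3.69% lower. Of these 10 genes, 9 had also served to name the segments. The lipid transporter Mfsd2a, a gene of the blood-brain barrier, rose by 3.02 (SE 0.29, edgeR adjusted p = 6.095e-08) with ATV-TfR and by 2.08 (SE 0.29, 2.677e-05) with ATV-CD98hc. Among 13 venous genes tested, 5 fell and 2 rose with ATV-TfR, and 2 fell and 2 rose with ATV-CD98hc. In control IgG, again against 1 negative library with borrowed spread, and with 0.481% of all genes called higher and 3.40% lower, 9 of the 13 venous genes rose and none fell from negative to low, such as Nr2f2, a transcription factor of venous identity, by 1.83 (SE 0.28, 0.0001831), while 10 of the 22 arterial genes fell. Of the Notch list Hes5 (-3.91, SE 0.84, 0.006235) and Neurl1a (-4.99, SE 1.10, 0.008306) fell there. Hes5 had 28 UMIs in the 1 negative library and 1 and 2 in the low libraries, and Neurl1a had 21 against 0 and 1. Markers of other cells were lower there: astrocyte markers summed to 414.8 CPM in the negative and 59.7 to 60.3 in the low libraries. Oligodendrocyte markers summed to 82.9 against 3.45 to 4.37. The neuron list summed to 116.1 against 18.8 to 33.8, but most of this was Stmn2, also an arterial segment marker. It had 951 UMIs in the negative library and 140 and 204 in the low libraries. The part of these lists in these changes was not tested.

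Marker lists of other cell types moved with the bins in endothelial-like cells, and some of these lists hold genes that endothelial-like cells express. The 8 astrocyte markers summed to 200.3 to 333.8 CPM in the ATV-TfR negative and 122.8 to 127.0 in the high libraries, and to 282.4 to 379.1 against 93.6 to 103.2 with ATV-CD98hc, with at most 2 of them at 0. The bins between were at 737.0 to 1151.3 (low) and 616.1 to 792.4 CPM (medium) with ATV-TfR and at 637.0 to 1073.6 (low) and 170.6 to 225.2 (medium) with ATV-CD98hc. So the astrocyte sum was highest in the low bin with ATV-CD98hc, while with ATV-TfR the low and medium ranges overlapped, both above the outer bins. The sums of the neuron and oligodendrocyte lists differed more between the outer bins. The 6 neuron markers summed to 483.5 to 543.3 CPM in the ATV-TfR negative and 73.5 to 87 in the high libraries. With ATV-CD98hc they summed to 494.2 to 580.2 against 44.8 to 48.6. However, this list holds Stmn2, also an arterial segment marker, at 420.1 CPM in arterial-like sub-cluster 2 and 1030.8 in sub-cluster 12. Stmn2 had 246 and 146 UMIs in the ATV-TfR negative libraries. It made up most of the neuron sum in the outer bins of both ATVs. These sums therefore cannot be read as RNA of neurons. In the ATV-TfR low bin, where Hey1 and Sox17 were highest, the neuron list summed to 681.8 to 776.2 CPM, above the negative bin. With ATV-CD98hc the low bin had 279.3 to 326.2. The part of Stmn2 in these low-bin sums was not separated. The 5 immature neuron markers summed to 402.6 to 522.0 against 4.55 to 4.57 CPM, and to 218.3 to 219.2 against 2.79 to 3.08 (3 or 4 at 0 in the negative libraries). Of these, Cd24a is also a fenestrated segment marker and was among the leading genes of an endothelial-like cluster of 275 cells. Its part in the sum was not separated, so this sum cannot be read as RNA of immature neurons alone. The 7 oligodendrocyte markers summed to 111.7 to 174.0 against 5.06 to 8.81 CPM, and to 85.5 to 160.8 against 4.15 to 4.52. All these lists were thus lower in the high than in the negative bin, as were Gkn3, Bmx, Jag1 and Jag2. For the neuron and immature neuron lists, which hold segment markers, RNA of other cells and the change in segments cannot be told apart. The 7 smooth muscle markers summed to 82.8 to 92.3 against 32.4 to 40.5 CPM with ATV-TfR (2 markers at 0 in each negative library), and to 80.4 to 81.7 against 19.6 to 37.5 with ATV-CD98hc (3 or 4 at 0). Pericyte markers went the other way with ATV-TfR, from 134.9 to 211.9 CPM in the negative to 554.4 to 563.6 in the high libraries, while with ATV-CD98hc the ranges overlapped (349.3 to 758.2 against 417.5 to 575.6). The pericyte list holds Rgs5, which also led the genes of an endothelial-like cluster of 19528 cells. Its part in these sums was not separated. Erythroid markers stood at 18251.3 CPM in ATV-CD98hc negative replicate 1 and at 0 in replicate 2. Over all bins together, smooth muscle-like cells had more Jag1 and pericyte-like cells more Notch1 and Hes1 than endothelial-like cells. In the negative bins, however, endothelial-like Jag1 was at 200.9 (ATV-TfR) and 168.1 CPM (ATV-CD98hc), near the 184.6 of smooth muscle-like cells over all bins. The part of any of these lists in the members' changes was not tested.

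Outside the endothelium, astrocyte-like cells had members at levels that allow a view by bin. Notch1 was at 147.0 to 191.5 CPM over their 17 libraries, and Hey1 at 24.4 to 39.9 CPM. Jag1 was at 25.1 and 27.4 CPM in the ATV-TfR high libraries against 34.5 and 41.3 in the negative, and at 43.3 and 56.2 against 34.8 and 34.0 with ATV-CD98hc, so the high bins of the ATVs lay on opposite sides of their negative bins. This was not tested. Hes1 in them was at 52.3 to 130.1 CPM, with the highest value in ATV-TfR negative replicate 2.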

How the data were processed

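Whole-number UMI counts of each gene in each barcode were deposited, made by the authors with Cell Ranger 7.1.0 per the file headers and not normalized; the submitters' processing notes also name Seurat 4 and 5 and the builds mm10 and GRCm38. The other deposited files list genes, barcodes and the library of each barcode. Of 265025 barcodes with 1129743851 UMIs, 249715 passed the filter (minimum 500 genes and 800 UMIs, maximum 10% mitochondrial UMIs). Scrublet (scanpy 1.11.5) marked 15691 doublets (0.69% to 12.2% per library), which were removed. In 8 libraries of the brighter bins its automatic threshold did not work, and the score's percentile 94 replaced it. Leiden clustering (2000 variable genes without the members, 50 components, 15 neighbours, resolution 1, igraph 0.11.9, leidenalg 0.10.2, no batch integration) gave 43 clusters, of which 27 took 1 of 12 class names from 20 marker lists; 13740 cells (5.87%) stay unnamed. Among these is a cluster of 1806 cells for which both the endothelial and the astrocyte list passed. Its leading genes were Gkn3, Stmn2, Egfl8, Igfbp3, Vegfc, Gfap, Fbln5 and Bmx, with Cdh13 and Fbln2. Its cells entered no endothelial-like sum, segment or share made from clusters, and their spread over the bins is not given. Endothelial-like cells were clustered again (30 components) and named by 4 segment lists of 5 to 11 markers. The rebuilt names may differ from the study's.

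UMIs were summed per class and library, and libraries with at least 20 cells entered edgeR 4.0.16 (R 4.3.3, limma 3.58.1): TMM factors, filterByExpr, 1 mean per group, quasi-likelihood test, Benjamini-Hochberg adjustment over all genes, called at an adjusted p below 0.05. The endothelial-like fit had 21 libraries, 10 residual degrees of freedom and 15372 genes, the capillary-like fit 14, 6 and 14334, and the arterial-like fit 19, 9 and 13314. CPM is a gene's UMIs in 1000000 of the class, without TMM factors, and SE is the log2 change over the root of the F statistic. On data simulated for the ATV-TfR high against negative comparison (13761 genes), 47% of 2-fold and 87% of 4-fold changes were called and 0.0737% of unchanged genes. The changed genes all lay above 10 CPM, and the libraries were drawn independently from 1 mean profile. These rates therefore need not hold for lower counts, for bins that share a pool or for bins that differ in segments. Named genes are the members, the up to 3 called genes per list and direction with the smallest adjusted p, and the 3 genes most like each member. Cd24a and Rgs5 are named besides, as markers of other cells that also led endothelial-like clusters. The members and lists were chosen with earlier results of these data known. Alternatives were RLE factors, DESeq2 1.42.0, other filters on counts and cells, doublets kept, a marker gate, other segment resolutions, single pools left out and the pool as a block. Bins of a pool share animals per the labels, and the replicate 1 minus 2 differences of its bins correlated at 0.07 to 0.96 over genes. Gene positions are those of the GENCODE annotation of GRCm38.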

Additional observations from a re-analysis of the deposited data

How the results depend on the processing

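Of 31 member changes called by edgeR, none reversed under any alternative, and all 31 stayed called with RLE factors, DESeq2, no filter or a stricter filter on low counts, the replicate block, doublets kept and a stricter filter on cells. Of these 31 calls, 2 ended without ATV-TfR replicate 1 and 5 without its replicate 2. Without ATV-CD98hc replicate 1 or 2, 3 and 4 ended, and with the marker gate 2 of 22. Of 79 member changes that were not called, 8 became called with DESeq2 and 5 with RLE factors, as did 12 of 69 with the replicate block, which changed no other call of a member. The block gave no value for the high bins of the ATVs against each other, because each pool lies within 1 treatment. RLE factors moved the median change of genes by -0.20 with ATV-TfR and -0.18 with ATV-CD98hc (high minus negative), and split the calls into 303 higher and 1203 lower, and 142 higher and 652 lower, against 528 and 1005, and 246 and 567. Every member called lower stayed so. No change that switched sign was called; those named in the report follow. Hes1 of ATV-TfR (high minus negative) was at 0.12 with no filter and 0.45 without fenestrated-like cells, and from -0.32 to 0.18 with 1 pool left out; Sox17 was at 0.02 with no filter and from -0.33 to 0.02 with 1 pool left out. Against the brighter bins of ATV-TfR, Hey1 ran from -0.08 to 0.55 with 1 pool left out and was at -0.23 without fenestrated-like cells, and Hes1 at 0.20 without them. With ATV-CD98hc, Notch1 was at -0.06 with RLE factors and -0.06 with DESeq2, and Dll4 at -0.01 with DESeq2 and from -0.13 to 0.59 with 1 pool left out. Gkn3 in capillary-like cells of ATV-TfR ran from -0.61 to 0.52 with 1 pool left out. The cause was not tested for any of these.

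Counts of called genes moved more. DESeq2 called 1207 (ATV-TfR brighter), 1501 and 997 (ATV-CD98hc high and brighter), 30 (interaction) and 35 (high bins). The replicate block called 1254 (ATV-CD98hc high), 100 (interaction), 988 (control IgG), and 763 and 787 in capillary-like cells of ATV-TfR and ATV-CD98hc. With no filter there were 53 (interaction), 116 (high bins) and 337 (capillary-like, ATV-CD98hc), with the stricter filter on counts 5 (high bins), with RLE factors 5 and the stricter filter on cells 5 (interaction). The marker gate gave 11 (interaction), 53 (high bins) and 345 (control IgG). Without fenestrated-like cells there were 878 (ATV-TfR high), 350 (ATV-TfR brighter) and 0 (interaction). Leaving out 1 pool gave 530 to 2026 (ATV-TfR high), 228 to 1047 (ATV-TfR brighter), 405 to 833 (ATV-CD98hc high), 225 to 578 (ATV-CD98hc brighter), 0 to 52 (interaction), 0 to 1533 (high bins), 419 to 999 (control IgG), 76 to 747 and 68 to 218 (capillary-like cells of ATV-TfR and ATV-CD98hc), and 266 to 1179 and 295 to 563 (arterial-like cells). Where a group then had 1 library, it was taken to vary like the others.

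Arterial-like shares were smaller with other segment resolutions. For negative, low, medium and high in turn, ATV-TfR had 46.2%, 64.8%, 34.9% and 8.52% at resolution 0.5 and 40.0%, 39.9%, 23.9% and 10.1% at 1.5; ATV-CD98hc had 28.1%, 6.84% and 5.31% in the low, medium and high bins at 0.5, and 30.2%, 18.5%, 6.32% and 6.76% at 1.5. The ATV-CD98hc pools lay far apart there: replicates 1 and 2 had 2.87% and 10.8% (medium) and 2.04% and 8.59% (high) at 0.5, and 1.33% and 11.3%, and 2.03% and 11.5%, at 1.5. Capillary-like shares were 8.03% (negative, 0.5), 26.6% (medium, both) and 52.8% and 54.9% (high) with ATV-TfR, and 18.2% and 12.6% (negative) and 32.1% (low, 1.5) with ATV-CD98hc. In control IgG the arterial-like share was 8.89% and 6.42% (negative) and 1.46% and 1.58% (low) at 0.5 and 1.5, and the venous-like share 0% in both bins at 0.5 and 11.5% (negative) and 42.5% (low) at 1.5. Fenestrated-like shares of the ATV negative and high bins did not move. The ATV negative libraries held 58 to 121 endothelial-like and 28 to 57 arterial-like cells, which limits the changes measured against them. High minus negative of control IgG and of capillary-like cells, and brighter minus negative of control IgG, gave no value because too few cells were there.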
